A study of Homo sapiens with 23 samples.

Results

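A set of 10 genes in transforming growth factor beta (TGF-beta), activin and bone morphogenetic protein (BMP) signaling was followed across all arrays of a STAT3 knockdown experiment in MCF-10A-ER-Src cells. The genes were taken by symbol and comprised INHBA, INHBB, FST, FSTL3, TGFB1, TGFB2, TGFB3, BMP2, TGFBR2 and SMAD7, which are 10 of 19775 genes measured. Each was read through the probe set assigned to it alone that had the highest mean log2 signal, out of 22 such probe sets for the 10 genes and 54675 on the array.
MCF-10A is a non-transformed human mammary epithelial line, and in its ER-Src derivative viral Src is joined to the part of the estrogen receptor that binds hormone, and tamoxifen (TAM) activates the kinase. Cells received 25 nM of an siRNA pool against the transcription factor STAT3 (siSTAT3) or a non-targeting pool (siNEG, also named siSCM in the study), grew for 48 h, and were given 1 uM 4-hydroxytamoxifen or its vehicle ethanol (EtOH) for 4 or 24 h. All cells carried ER-Src and grew in medium with charcoal-stripped horse serum, epidermal growth factor, hydrocortisone, cholera toxin and insulin. The 23 arrays fell into 8 groups of 3, except siSTAT3 cells with TAM for 24 h, where 2 arrays (replicates 2 and 3) were used here. Every knockdown came from 1 siRNA pool, so a lower STAT3 level and any other effect of that pool cannot be told apart. The study speaks of biological replicates, but nothing in the labels says that they came from separate cultures, and p-values measure the spread between these arrays. In bulk RNA, fewer expressing cells and less RNA per cell cannot be told apart.

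Ligands of this family bind pairs of type I and type II receptor kinases, which phosphorylate SMAD proteins that then enter the nucleus with SMAD4. TGF-beta and activin act mainly through SMAD2 and SMAD3, and BMPs through SMAD1, SMAD5 and SMAD9. In mammary epithelium TGF-beta is known to restrain proliferation and to promote mesenchymal features, and activin is held in check outside the cell by follistatin and its relative follistatin-like 3.

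Signals are MAS5 values in arbitrary linear units, and differences are on the log2 scale with nothing added. A gene was called at an adjusted p under 0.05 in limma, adjusted over all 54675 probe sets. The array medians were 73.5 to 85.26 units, and 44.58% to 46.89% of probe sets exceeded 100 units on each array, with the number of arrays limiting the precision. STAT3 was 4022 ± 94.5 units in siNEG and 331 ± 29.3 units in siSTAT3 cells with EtOH at 4 h (SD, n = 3), and was lower in siSTAT3 cells in all 4 matched comparisons, by 10.5- to 15.3-fold. The basal keratins KRT5 and KRT14 were at 9428 units or more on every array. Of 5 general epithelial markers 4 exceeded 100 units on every array, and KRT19 stayed at 38.9 units or less. Of 4 luminal markers GATA3 was at 977 to 1863 units, ESR1 at 129 to 457, FOXA1 at 67.6 to 195 and PGR at 47.1 or less. Of 6 immune markers PTPRC, LYZ and AIF1 stayed under 100 units on all arrays. CD3E and CD79A reached 105 and 157 units, and CD14 was at 361 to 899 units. Of 4 endothelial markers CDH5 and VWF stayed under 100 units, KDR reached 121 units and PECAM1 was at 145 to 464 units. Of 7 fibroblast markers 5 stayed under 100 units on all arrays, while COL1A1 and DCN did not.

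The regions upstream of INHBA and FST are shown because both genes were higher in siSTAT3 than in siNEG cells in all 4 matched comparisons. Both sequences are the 250 bases before the annotated start, from RefSeq on GRCh38.p14, read 5′ to 3′ on the gene's strand. INHBA lies on the minus strand at chr7:41703091-41703340, and FST on the plus strand at chr5:53480379-53480628. Capitals in FST mark an AP-1 match (TGANTCA), 160 to 154 bases before the start, and capitals in INHBA mark a match to a cyclic AMP response element with 1 free base (TGANGTCA), 105 to 98 bases before it.
INHBA: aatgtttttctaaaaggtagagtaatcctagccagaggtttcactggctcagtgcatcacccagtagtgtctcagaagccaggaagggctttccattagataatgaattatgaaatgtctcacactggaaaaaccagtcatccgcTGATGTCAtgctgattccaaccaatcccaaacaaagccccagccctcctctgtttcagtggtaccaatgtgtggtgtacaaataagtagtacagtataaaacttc
FST: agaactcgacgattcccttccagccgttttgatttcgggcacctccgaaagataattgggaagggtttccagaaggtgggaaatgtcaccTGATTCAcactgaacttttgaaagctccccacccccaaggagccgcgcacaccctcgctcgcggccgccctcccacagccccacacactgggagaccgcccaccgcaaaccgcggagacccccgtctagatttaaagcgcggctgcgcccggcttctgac
The TGANGTCA letters were chosen after the INHBA sequence had been read and because they match there, so that match carries no weight as a search result. Windows were held for 9 of the 10 genes, 13 windows in all, and 35116 windows of the same length served as the background, with both strands searched. The STAT motif TTCNNNGAA was in no window of these genes and in 6.57% of all windows. The AP-1 motif was in FST alone of the 9 genes and in 6.57% of all windows, and TGANGTCA was in INHBA alone and in 6.87%. The core TGACG of the cyclic AMP response element was found for TGFB2 and TGFB3 (21.2% of all windows), the SMAD palindrome GTCTAGAC for none (0.182%), and the shorter SMAD motif CAGAC for SMAD7, TGFB2 and TGFB3 (38.0%). TGACG can lie within TGANGTCA, and all matches are descriptions of letters only.

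INHBA encodes the beta A subunit of activin A and inhibin A. Its signal was highest in siSTAT3 cells. At 4 h the siNEG arrays read 861, 1017 and 985 units with EtOH and 630, 591 and 676 units with TAM. The siSTAT3 arrays read 3537, 3645 and 3779 units with EtOH and 5790, 6037 and 6050 units with TAM. No array of one group reached the range of another at 4 h. At 24 h the siNEG arrays read 170, 159 and 158 units with EtOH and 237, 224 and 222 units with TAM. The siSTAT3 arrays read 454, 532 and 471 units with EtOH and 3475 and 4188 units with TAM. Thus on this probe set INHBA fell between 4 and 24 h in every group, and on the log2 scale least in siSTAT3 TAM cells (-0.64). With the mean of its probe sets the difference was -1.05 in siSTAT3 TAM and -0.89 in siNEG TAM cells. Another probe set did not fall in siNEG TAM cells, with means of 27.8 units at 4 h and 28.7 units at 24 h.
TAM had opposite effects on INHBA in the 2 backgrounds at 4 h. It fell in siNEG cells by 0.59 on the log2 scale (SE 0.09, adjusted p = 0.00104) and rose in siSTAT3 cells by 0.71 (SE 0.09, adjusted p = 0.00094). At 24 h it rose in both, 1.40-fold in siNEG and 7.87-fold in siSTAT3 cells, log2 differences of 0.49 (adjusted p = 0.00138) and 2.98 (adjusted p = 8.95e-11). The interaction subtracts the siNEG response to TAM from the siSTAT3 response, and for INHBA it came to 1.30 at 4 h (SE 0.13, adjusted p = 9.87e-05). At 24 h the interaction reached 2.49 (SE 0.14, adjusted p = 2.03e-08), and both calls held without each array in turn. The siSTAT3 cells held 3.84-fold more INHBA signal than siNEG cells in EtOH at 4 h and 16.8-fold more in TAM at 24 h. Of the other 2 INHBA probe sets, one gave an interaction of 1.86 at 24 h (adjusted p = 0.000927) and one gave 0.67, which was not called (adjusted p = 0.508), and neither was called for the interaction at 4 h. Neither was called for TAM in siNEG cells, where they differed by -0.30 and -0.75 at 4 h and by 0.60 and -0.04 at 24 h. With the mean of the 3 probe sets the INHBA difference in siNEG cells was -0.54 at 4 h (adjusted p = 0.0537) and 0.35 at 24 h (adjusted p = 0.137), so both siNEG calls were lost.

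**Figure D1:**
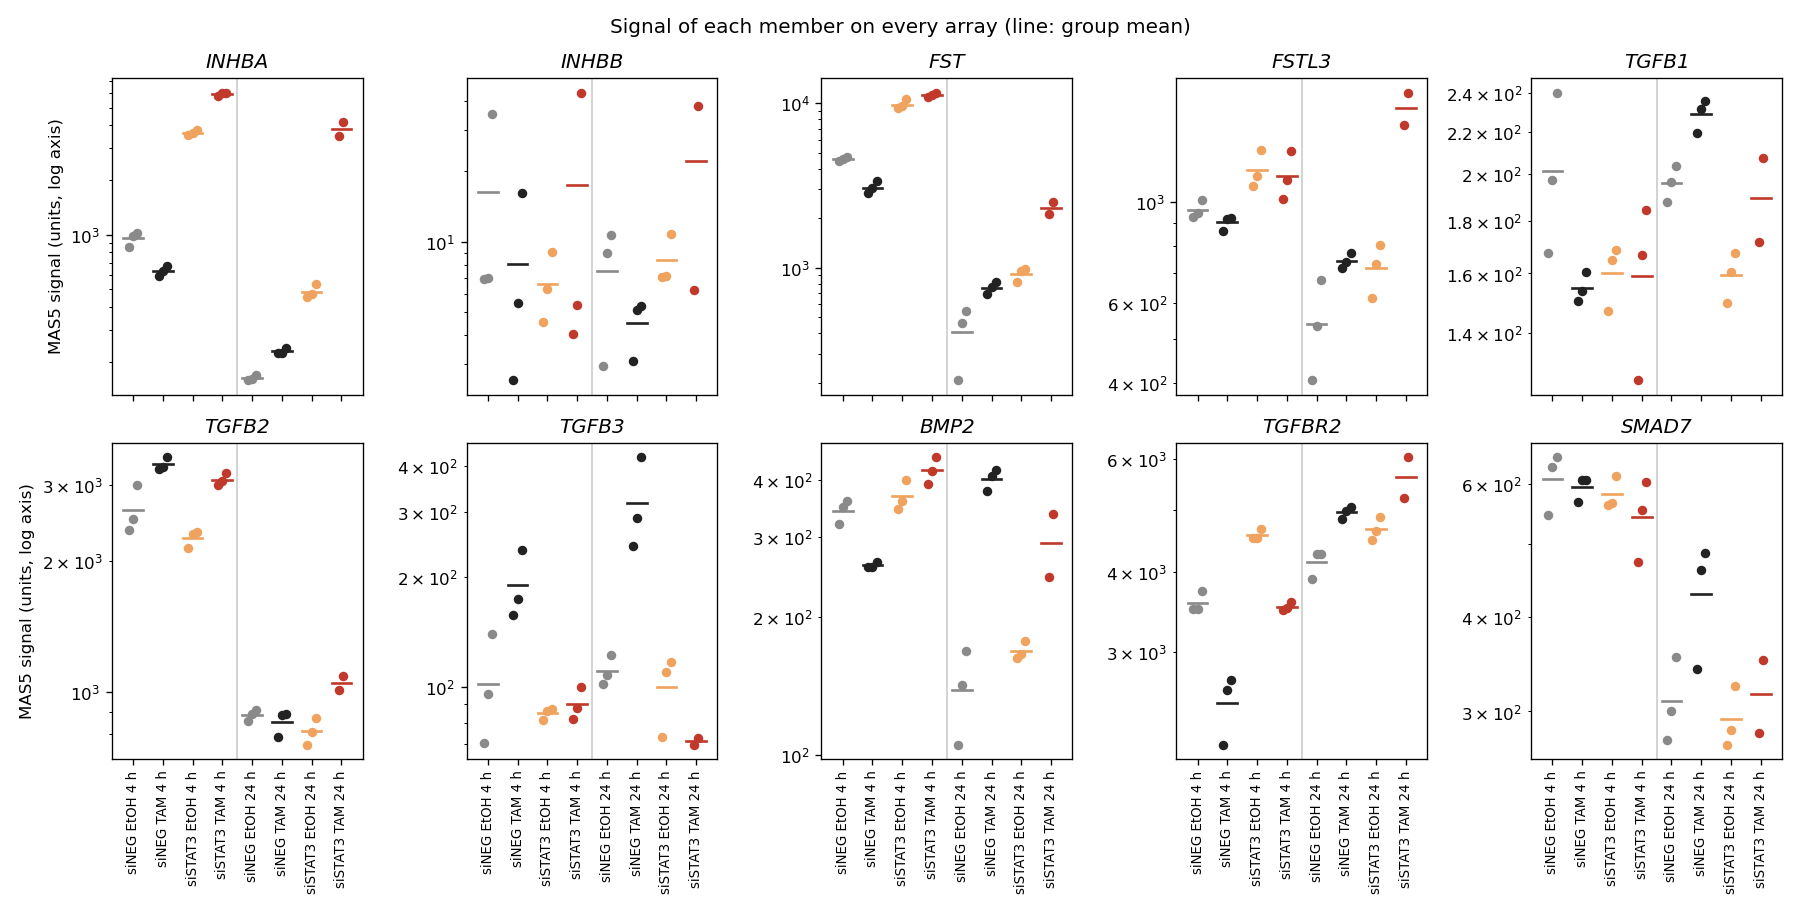
MAS5 signal in units (log axis) of the 10 genes on each of the 23 arrays, in the 8 groups of siRNA, treatment and time. Points are arrays, with EtOH in grey (siNEG) or orange (siSTAT3) and TAM in black (siNEG) or red (siSTAT3), horizontal lines are group means, and the vertical line separates 4 h from 24 h; INHBA spans 158 to 6050 units, with its highest arrays in siSTAT3 cells with TAM at 4 h.

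INHBB encodes the beta B subunit. It read 2.57 to 43.2 units over all arrays, while the lower quartile of the arrays was 23.58 to 28.63 units. It was called in no comparison, and with intervals as wide as -2.92 to 0.99 for TAM in siNEG cells at 4 h these arrays set no useful limit on its change.

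FST encodes follistatin, a secreted protein that binds and neutralizes activin. At 4 h its siNEG arrays read 4474, 4546 and 4692 units with EtOH and 2829, 3354 and 3030 units with TAM. The siSTAT3 arrays read 10544, 9271 and 9552 units with EtOH and 11197, 11539 and 10950 units with TAM. All siSTAT3 arrays were above all siNEG arrays at 4 h. At 24 h the siNEG arrays read 545, 463 and 208 units with EtOH and 819, 698 and 761 units with TAM. The siSTAT3 arrays read 988, 950 and 820 units with EtOH and 2118 and 2518 units with TAM. The siSTAT3 arrays lay above the matched siNEG arrays in all 4 comparisons, and siNEG EtOH replicate 3 stood apart at 24 h.
FST was higher in siSTAT3 cells by 1.10 and 1.87 at 4 h in EtOH and TAM (adjusted p = 0.0133 and 4.69e-05), and by 1.29 and 1.61 at 24 h (adjusted p = 0.00564 and 0.000351). TAM raised it at 24 h 2.02-fold in siNEG cells (log2 1.02, SE 0.23, adjusted p = 0.00728) and 2.52-fold in siSTAT3 cells (log2 1.33, SE 0.26, adjusted p = 0.0113). Without siNEG EtOH 24 h replicate 3 the siNEG difference was 0.59 (adjusted p = 0.00295). The siSTAT3 call was lost without siSTAT3 TAM 24 h replicate 3 or siSTAT3 EtOH 24 h replicate 3, and the siSTAT3 excess in EtOH at 4 h was lost without siSTAT3 EtOH 4 h replicate 1. Without siNEG EtOH 24 h replicate 3 the siSTAT3 excess in EtOH at 24 h was 0.87 (adjusted p = 0.000867). The interaction was not called at either time, but at 4 h it was called higher without siNEG EtOH 24 h replicate 3. At 24 h the interaction was 0.32 with a 95% interval of -0.42 to 1.06. That value used siNEG EtOH 24 h replicate 3, without which the siNEG difference was the smaller 0.59. At 4 h all FST arrays with TAM were below those with EtOH in siNEG cells and above them in siSTAT3 cells. Neither of these 4 h differences was called. On each array, log2 INHBA minus log2 FST was set to a mean of 0 in siNEG EtOH cells at 4 h. It then had a mean of 2.99 on the 2 siSTAT3 TAM arrays at 24 h and of 0.53 on the 3 siNEG TAM arrays. These arrays do not overlap, but the exact two-sided permutation p of 0.1 is the smallest that this design allows. In EtOH at 24 h the siSTAT3 and siNEG arrays overlapped, with a difference of 0.29 (exact two-sided permutation p = 0.5). That overlap came from siNEG EtOH replicate 3, at 1.87. Replicates 1 and 2 were at 0.58 and 0.73, and the siSTAT3 EtOH arrays were at 1.14, 1.43 and 1.46.

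FSTL3 encodes a secreted inhibitor of activin related to follistatin. At 4 h it read 865 to 1303 units over all 12 arrays. At 24 h it read 535, 676 and 406 units in siNEG EtOH, 718, 774 and 738 in siNEG TAM, 615, 732 and 805 in siSTAT3 EtOH, and 1478 and 1743 units in siSTAT3 TAM cells. The last group lay above all others. TAM raised it at 24 h by 1.17 in siSTAT3 cells (SE 0.17, adjusted p = 0.000958) and by 0.49 in siNEG cells (SE 0.15, adjusted p = 0.0447), but the interaction of 0.68 was not called (adjusted p = 0.134). Without siNEG EtOH 24 h replicate 3 the siNEG difference was 0.31 and not called (adjusted p = 0.216). In TAM at 24 h, siSTAT3 cells exceeded siNEG cells by 1.11 (adjusted p = 0.000195).

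TGFB3 encodes TGF-beta 3 and was lower in siSTAT3 than in siNEG cells with TAM. At 24 h it read 108, 102 and 123 units in siNEG EtOH, 424, 242 and 290 in siNEG TAM, 110, 73.3 and 117 in siSTAT3 EtOH, and 72.5 and 69.8 units in siSTAT3 TAM cells. The siNEG TAM arrays were above all others and the siSTAT3 TAM arrays were the lowest. At 4 h the siNEG arrays read 70.4, 140 and 95.7 units with EtOH and 158, 174 and 237 units with TAM. The siSTAT3 arrays read 87.2, 86.2 and 81.4 units with EtOH and 87.9, 82.0 and 100.1 units with TAM. The siNEG TAM arrays again lay above the rest, though the TAM difference of 0.93 in siNEG cells was not called at 4 h (adjusted p = 0.0583). TAM raised TGFB3 at 24 h in siNEG cells by 1.49 (SE 0.24, adjusted p = 0.000414), while the siSTAT3 difference was -0.46 with an interval of -1.04 to 0.11. The interaction at 24 h was -1.95 (SE 0.36, adjusted p = 0.00372). In TAM, siSTAT3 cells were below siNEG cells by 1.06 at 4 h (log2 -1.06, adjusted p = 0.012) and by 2.12 at 24 h (log2 -2.12, adjusted p = 3.06e-05). The 4 h call was lost without siNEG TAM 4 h replicate 3 or siSTAT3 TAM 4 h replicate 2. A second probe set for TGFB3 had group means of 2.21 to 15.9 units, below the arrays' lower quartile, and when both were averaged the 24 h interaction was -1.27 and not called (adjusted p = 0.506). The summed signal of the 7 fibroblast markers, mostly DCN, was also lower in siSTAT3 TAM cells at 24 h. It went from 6836 to 7896 units in siNEG TAM to 2950 to 2957 units in siSTAT3 TAM cells. In EtOH at 24 h this sum was also lower in siSTAT3 cells, at 3143 to 3171 units beside 5726 to 5965 in siNEG cells. There the TGFB3 arrays of the siRNAs overlapped. At 4 h the sum was lower in siSTAT3 cells in both treatments. COL1A1, the other fibroblast marker over 100 units, went against the sum. It was called higher in siSTAT3 than in siNEG TAM cells at 24 h, with an interaction of 0.51 (adjusted p = 0.0338). COL1A2, COL3A1 and PDGFRB stayed at 66.6 units or less on every array, and the part of fibroblast markers in the TGFB3 result was not tested. The summed signal of 5 general epithelial markers at 24 h ran opposite to the fibroblast sum. It went from 23555 to 26560 units in siNEG TAM to 42604 to 49767 units in siSTAT3 TAM cells. It was 33817 to 37907 units in siNEG EtOH and 40725 to 42946 units in siSTAT3 EtOH cells. The part of the epithelial sum in the results at 24 h was not tested.

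TGFB2, which encodes TGF-beta 2, was set mainly by time. It read 2357, 3004 and 2500 units in siNEG EtOH cells at 4 h and 861, 891 and 912 units at 24 h. TAM raised it at 4 h by 0.36 in siNEG (adjusted p = 0.047) and 0.45 in siSTAT3 cells (adjusted p = 0.0316). The siSTAT3 call was lost without any of the 6 arrays compared, the siNEG call without any of 21 arrays singly. Of 4 other TGFB2 probe sets, 3 had the same sign in each background, and 1 was called. With the mean of its probe sets neither difference was called (0.29 in siNEG, adjusted p = 0.607, and 0.20 in siSTAT3 cells, adjusted p = 0.831). At 24 h TGFB2 read 1092 and 1009 units in siSTAT3 TAM cells and 758 to 871 units in siSTAT3 EtOH cells, a difference of 0.37 that was not called (adjusted p = 0.0827). TGFB1 encodes TGF-beta 1, stayed between 126 and 240 units on all arrays, and was called in 1 comparison, the difference of 24 from 4 h in siNEG TAM cells (0.56, adjusted p = 0.00771). Its other probe set was not called there. With the mean of its probe sets the difference was 0.32 and the call was lost (adjusted p = 0.0534).

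BMP2 encodes a ligand of the BMP receptors. At 4 h its siNEG arrays read 320, 348 and 359 units with EtOH and 258, 264 and 257 units with TAM. At 24 h they read 169, 142 and 105 units with EtOH and 377, 420 and 408 units with TAM. The siSTAT3 arrays at 24 h read 163, 166 and 177 units with EtOH and 245 and 336 units with TAM. So TAM arrays were above EtOH arrays at 24 h in both backgrounds and below them at 4 h in siNEG cells, where the difference of -0.40 was not called (adjusted p = 0.207). At 24 h TAM raised BMP2 by 1.56 in siNEG cells (SE 0.14, adjusted p = 6.5e-07) and by 0.77 in siSTAT3 cells (SE 0.16, adjusted p = 0.0168). In siSTAT3 cells the call was lost without siSTAT3 TAM 24 h replicate 3, siSTAT3 EtOH 24 h replicate 1 or siSTAT3 EtOH 24 h replicate 2. The interaction of -0.79 had an adjusted p of 0.0447, and it was lost on leaving out any of 21 of the 23 arrays singly. A second BMP2 probe set gave -1.18 (adjusted p = 0.0111). At 4 h the siSTAT3 arrays read 344, 358 and 400 units with EtOH and 391, 448 and 418 units with TAM, and in TAM they exceeded the siNEG arrays by 0.69 (adjusted p = 0.00518).

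TGFBR2 encodes the type II TGF-beta receptor. At 4 h it read 3499, 3729 and 3499 units in siNEG EtOH and 2715, 2614 and 2152 units in siNEG TAM cells, so TAM arrays were lower. The siSTAT3 arrays read 4514, 4513 and 4660 units with EtOH and 3591, 3482 and 3516 units with TAM. TAM lowered it in siNEG cells (log2 -0.53, SE 0.09, adjusted p = 0.00195), and in siSTAT3 cells the difference was -0.37 (adjusted p = 0.0723). It was higher in siSTAT3 than in siNEG cells by 0.35 in EtOH (adjusted p = 0.0332) and by 0.51 in TAM at 4 h (adjusted p = 0.00103), the former lost without any of the 6 arrays compared. At 24 h the siNEG arrays read 4273, 4262 and 3901 units with EtOH and 5054, 4977 and 4835 units with TAM, a difference of 0.26 that was not called (adjusted p = 0.0672). SMAD7 encodes the inhibitory SMAD that blocks receptor signaling and is itself a target of it. It fell with time from 652, 547 and 632 to 355, 300 and 275 units in siNEG EtOH cells, and its rise of 0.46 with TAM at 24 h in siNEG cells (adjusted p = 0.0444) came from arrays that overlapped and was lost without any of 15 arrays singly.

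**Figure D2:**
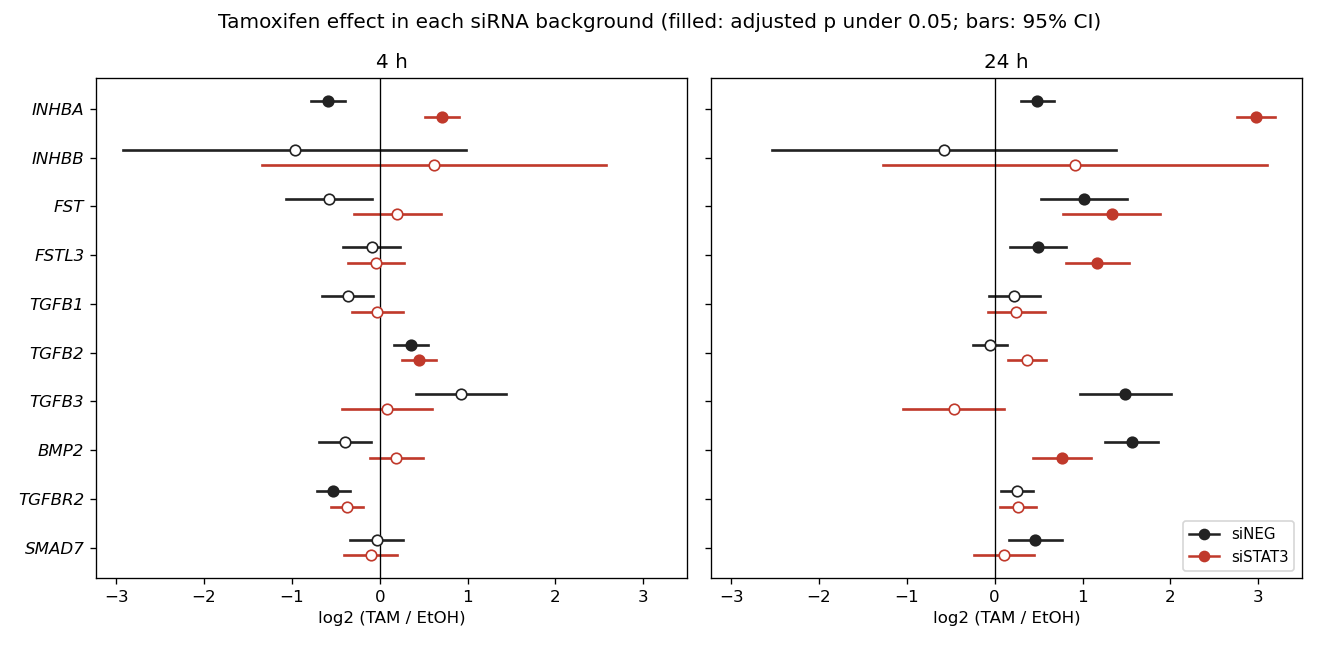
Log2 ratio of TAM to EtOH for the 10 genes at 4 h (left) and 24 h (right) in siNEG (black) and siSTAT3 (red) cells. Points are fitted differences, bars are 95% confidence intervals and filled points have an adjusted p under 0.05; INHBA lies at 2.98 and TGFB3 at -0.46 in siSTAT3 cells at 24 h.

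Counts over the 10 genes are read against all 19775 genes and against the 11656 genes with a group mean of 100 units or more, which stand second in each pair of percentages. TAM in siNEG cells called 3 of the 10 at 4 h (1 higher, 2 lower), where 3.26% and 5.28% of genes were called. At 24 h it called 6, all higher, against 15.4% and 24.8% called in either direction and 6.06% of all genes called higher. In siSTAT3 cells TAM called 2 at 4 h, both higher (0.819% and 1.33%, with 0.531% of all genes higher), and 4 at 24 h, all higher (2.75% and 4.49%, with 2% of all genes higher). The median log2 difference of the 10 genes at 24 h was 0.48 in siNEG and 0.57 in siSTAT3 cells, and over all genes it was -0.04 and -0.01.
The siSTAT3 pool called 3 of the genes in EtOH at 4 h, all higher (4.28% and 6.98%, with 1.88% of all genes higher), and 2 at 24 h, both higher (2.86% and 4.73%, with 1.4% of all genes higher). In TAM it called 5 at 4 h (9.29% and 15.1%) and 4 at 24 h (16.5% and 26.4%), of which TGFB3 alone was lower at each time. Interactions were called for INHBA alone at 4 h (0.521% and 0.858%, with 0.192% of all genes higher). At 24 h they were called for INHBA, TGFB3 and BMP2 (5.91% and 9.69%). These comparisons share arrays. The 10 genes were chosen with earlier results of these data known, so a count above these shares is a description and not independent evidence.

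**Figure D3:**
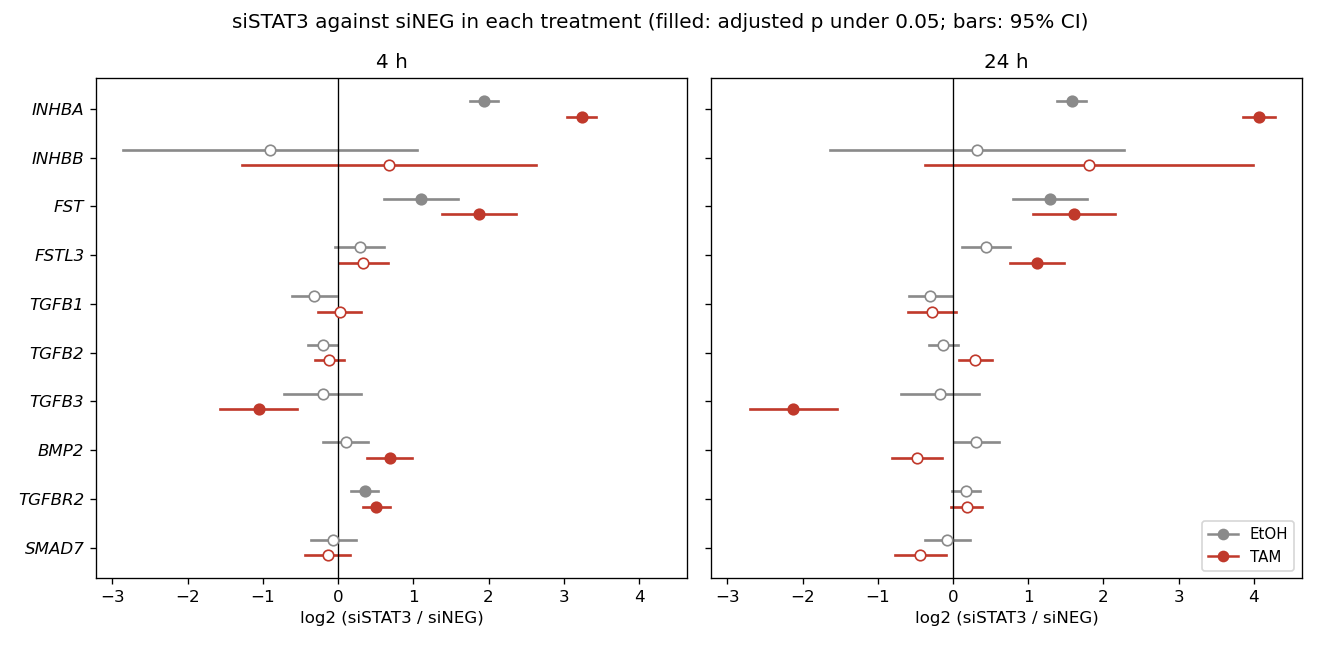
Log2 ratio of siSTAT3 to siNEG for the 10 genes at 4 h (left) and 24 h (right) in EtOH (grey) and TAM (red). Points are fitted differences, bars are 95% confidence intervals and filled points have an adjusted p under 0.05; INHBA reaches 4.07 and TGFB3 -2.12 in TAM at 24 h.

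Time in culture moved most of these genes. Between 4 and 24 h in EtOH, INHBA, FST, FSTL3, TGFB2, BMP2 and SMAD7 fell in siNEG cells and in siSTAT3 cells, 6 of 10 in each. In siNEG cells 12.3% of all genes and 20.3% of those with signal were called, with 5.52% of all genes lower, and in siSTAT3 cells 13.4% and 22%, with 5.28% lower. FST fell 12.2-fold in siNEG and 10.7-fold in siSTAT3 cells with EtOH. In TAM 8 genes were called in siNEG cells (4 higher, 4 lower, against 21.1% and 34.2%) and 6 in siSTAT3 cells (1 higher, 5 lower, against 14.2% and 23.1%). BMP2 rose by 0.63 in siNEG TAM cells (adjusted p = 0.00447) and fell in siSTAT3 TAM cells (log2 -0.54, adjusted p = 0.0349). Without siSTAT3 TAM 24 h replicate 2 the latter was -0.32 (adjusted p = 0.373), and it was also lost without siSTAT3 TAM 4 h replicate 2 or 3. TGFBR2 rose in both TAM groups, by 1.00 in siNEG and 0.67 in siSTAT3 cells. The TAM effect at 24 h exceeded that at 4 h for INHBA, FST, BMP2 and TGFBR2 in siNEG cells (5.59% and 9.11% of genes were called, with 2.97% of all genes higher) and for INHBA, FSTL3 and TGFBR2 in siSTAT3 cells (0.536% and 0.867%, with 0.42% higher). In siSTAT3 cells the FSTL3 call was lost without any of 7 arrays singly and the TGFBR2 call without any of 19.

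Beyond the 10 genes, 87 of 96 listed genes of these pathways were measured, in 7 lists. TAM at 24 h called 23 of them in siNEG cells (14 higher, 9 lower). This is 26.4%, beside 15.4% of all genes, and is near the 24.8% of genes with a group mean of 100 units or more. In siSTAT3 cells TAM called 8 (all higher), which is 9.2% beside 2.75% and 4.49%. The siSTAT3 pool in TAM at 24 h called 34 (21 higher, 13 lower), which is 39.1% beside 16.5% and 26.4%. The lists also hold genes at low signal, and no test of the lists was made. They were chosen with earlier results of these data known, so their shares, here and below, are descriptions only. BAMBI was counted in the list of intracellular regulators, although it is a decoy receptor in the membrane. It rose from 459 to 1754 units in siNEG cells with TAM (log2 1.93, SE 0.10, adjusted p = 4.06e-10). In siSTAT3 cells it read 478 units with EtOH and 563 with TAM, an interaction of -1.69 (adjusted p = 1.78e-06). NEDD4L, a ubiquitin ligase that acts on SMADs, rose by 1.53 in siNEG cells (interaction -1.03, adjusted p = 0.00354). LTBP1, which binds latent TGF-beta in the matrix, rose by 1.13 in siNEG and by 0.44 in siSTAT3 cells, an interaction of -0.68 (adjusted p = 0.000185). ACVR1B, the type I activin receptor, rose by 1.05 in siNEG cells and differed by 0.02 in siSTAT3 cells (interaction -1.03, adjusted p = 0.000211). TGFBR3, a co-receptor that presents TGF-beta, fell by 0.93 in siNEG cells (adjusted p = 0.000144), and its interaction of 0.52 was not called (adjusted p = 0.234). THBS1, which can activate latent TGF-beta, fell from 5164 to 2587 units in siNEG cells and read 8294 and 11336 units in siSTAT3 cells, an interaction of 1.45 (adjusted p = 0.000102). Of 7 SMADs, SMAD3 and SMAD9 rose and SMAD2 fell in siNEG cells. Of 16 further ligands only GDF15 was called in siNEG cells, where it fell by 0.67. No gene of either list was called in siSTAT3 cells, where 2.75% of all genes were called.
Of 13 measured TGF-beta and activin target genes, 5 rose and 2 fell with TAM at 24 h in siNEG cells, and 5 rose in siSTAT3 cells. In siNEG cells 15.4% of all genes and 24.8% of those with signal were called, and in siSTAT3 cells 2.75% and 4.49%. The list medians were 0.26 and 0.52, against -0.04 and -0.01 over all genes. Interactions at 24 h were called for 7 of the 13, beside 5.91% of all genes and 9.69% of those with signal. Of the 7, 6 were higher and KLF10 was lower (-0.68, adjusted p = 0.00434). The 5 that rose in siSTAT3 cells were CCN2, FN1, COL4A1, SNAI2 and TAGLN, which, like KLF10 and SMAD2, are named here after their values were seen. COL4A1 had an interaction of -0.09 that was not called (adjusted p = 0.851). TAGLN, a smooth muscle actin-binding protein, was 411 and 491 units in siNEG EtOH and TAM cells and 955 and 2744 units in siSTAT3 cells. Its TAM difference was larger in siSTAT3 cells by 1.24 (adjusted p = 0.00151). CCN2, a matricellular protein, fell in siNEG (log2 -0.62) and rose in siSTAT3 cells (0.66), an interaction of 1.29 (adjusted p = 1.42e-05). TIMP3, an inhibitor of metalloproteinases, fell by 1.59 in siNEG cells, and its interaction was 1.36 (adjusted p = 0.00123). JUNB, an AP-1 subunit, rose by 1.14 in siNEG cells (adjusted p = 0.0082), and its interaction of -0.70 was not called (adjusted p = 0.474). Of 8 BMP target genes, ID1 rose and ID3 fell in siNEG cells. None of the 8 was called in siSTAT3 cells, where 2.75% of all genes were called. ID3, an inhibitor of basic helix-loop-helix factors, was 1282 units in siNEG and 5648 units in siSTAT3 TAM cells (log2 2.14, adjusted p = 7.5e-08), and its interaction was 1.41 (adjusted p = 0.000761). ID1, of the same family, went the other way, with 13248 units in siNEG and 8735 units in siSTAT3 TAM cells (log2 -0.60, adjusted p = 0.000822) and an interaction of -0.67 (adjusted p = 0.0112).

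**Figure D4:**
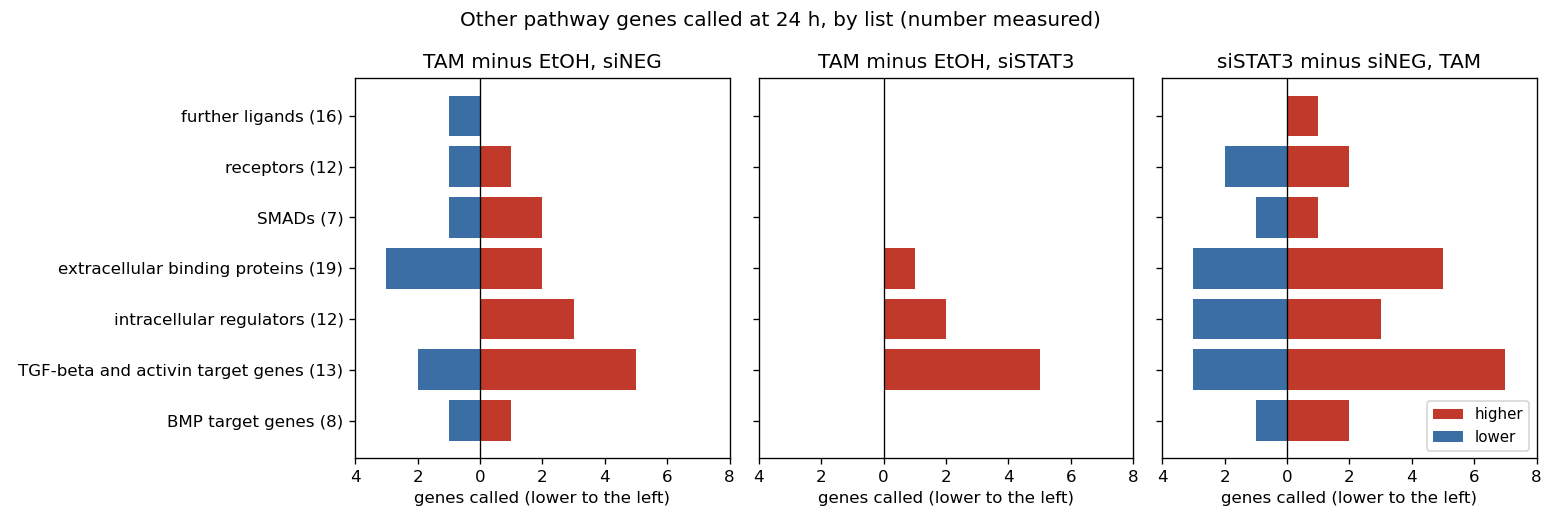
Number of other pathway genes called higher (red, right) or lower (blue, left) at 24 h in 3 comparisons, by list, with the number measured in parentheses. In siSTAT3 cells TAM called 5 of 13 TGF-beta and activin target genes, all higher, and none of 8 BMP target genes. That comparison called 2.75% of all genes, and 4.49% of those with a group mean of 100 units or more.

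The genes whose 8 group means ran most like those of INHBA were NEDD9, SEMA7A and CXCL8 (Pearson r = 0.995, 0.976 and 0.965, among 2611 genes whose highest group mean reached 100 units and whose means spanned 1 log2 unit or more). For TGFB3 they were TENT5C, VSNL1 and MPZL2 (r = 0.991, 0.980 and 0.974), and for BMP2 they were PHLDA1, FRMD3 and TGFA (r = 0.949, 0.948 and 0.935). These are descriptions over 8 points from the same arrays.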

How the data were processed

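RNA from 23 samples was hybridized to Affymetrix Human Genome U133 Plus 2.0 arrays. The authors deposited 1 intensity per probe set and array on a linear scale, after background correction and normalization in MAS5, the tool that the submitters' processing notes also name. Its version and scaling target are not given in the sources used here, and replicates were not pooled. A shift of all genes cannot be seen after such normalization, and low values are imprecise. In the platform annotation 41097 probe sets had 1 gene symbol, 1801 several and 11777 none, and genes were read only from the first kind.
Groups came from the sample labels. Log2 intensities were fitted with limma 3.58.1 in R 4.3.3 with 1 mean for each of the 8 groups (15 residual and 1.27 prior degrees of freedom), two-sided tests and Benjamini-Hochberg adjustment over 54675 probe sets per comparison. Of the comparisons, 14 were planned, and 2 (the TAM effect at 24 h minus that at 4 h) were added after the data were seen. The named genes were the 10 members, the 2 genes per pathway list with the largest called TAM effect in siNEG cells at 24 h, and the 3 genes most like each member with a called interaction. Genes named outside this rule are stated as such where they appear. STAT3 was read as a check of the siRNA. The members and lists were chosen with earlier results of these data known. The procedure was tested on simulated data. Alternatives were a value of 16 units added before log2, a low-signal filter at 100 units, quantile normalization, median centring, a replicate block, fits of only the groups compared, a variance trend, the study's limits, the mean of a gene's probe sets, and leaving out each array. Upstream sequences came from RefSeq on GRCh38.p14. Of 96 listed pathway genes, 9 were not analysed here.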

Additional observations from a re-analysis of the deposited data

Results flagged for a closer look

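The response to TAM differed between siRNAs by the interaction test in limma for INHBA (1.30 at 4 h and 2.49 at 24 h, log2 scale), TGFB3 (-1.95 at 24 h) and BMP2 (-0.793 at 24 h). In siNEG cells the TAM effect at 24 h minus that at 4 h was 1.08 for INHBA, 1.59 for FST, 1.95 for BMP2 and 0.785 for TGFBR2. In siSTAT3 cells it was 2.27 for INHBA, 1.21 for FSTL3 and 0.639 for TGFBR2. Groups held 3 or fewer arrays, and single arrays were examined only by reading their values and by leaving each out in turn.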

How the results depend on the processing

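Of 66 calls of the 10 genes over 16 comparisons, 26 were kept under every alternative other than the study's limits and also without each array. Fits of only the groups compared, which hold fewer arrays, called 0 genes for TAM in siNEG cells at 4 h, 2 at 24 h, 0 for TAM in siSTAT3 cells at 4 h, 0 at 24 h, 1 for siSTAT3 against siNEG in EtOH at 4 h, 0 at 24 h, 2 in TAM at 4 h, 3 for time in siNEG EtOH cells, 0 for time in siSTAT3 TAM cells and 1 for the change of the TAM effect with time in siSTAT3 cells. The mean of a gene's probe sets called 1 gene for TAM at 4 h in each background, and it turned TGFB3 in siSTAT3 against siNEG TAM cells at 4 h from -1.06 to 0.71 (adjusted p = 0.552), the second TGFB3 probe set being near the low end of the arrays. The low-signal filter, which adjusts over fewer probe sets, called 7 genes for siSTAT3 against siNEG in TAM at 24 h and 5 for the interaction at 24 h. The study's limits called 2 for TAM in siNEG cells at 24 h, 1 for TAM in siSTAT3 cells at 4 h, 1 for siSTAT3 against siNEG in EtOH at 4 h, 3 in TAM at 4 h and 4 for time in siNEG TAM cells.
The labels do not say what a replicate number shares, and 11 of 77 same-numbered pairs had a correlation of deviations over 0.1 (median 0.0276, and -0.0172 for other numbers), so the numbers were not taken to pair the arrays, although 18 of 23 arrays were closer to their own number. With the replicate block 9 of the 66 calls were lost, at adjusted p-values of 0.0505 to 0.0771, among them the BMP2 interaction at 24 h and FSTL3 for TAM in siNEG cells at 24 h. Under it 1 gene was called for TAM in siSTAT3 cells at 4 h and 1 for the change of the TAM effect with time in siSTAT3 cells. Leaving out each array in turn gave 1 to 3 genes for TAM in siSTAT3 cells at 4 h and 2 to 5 at 24 h, 1 to 3 for siSTAT3 against siNEG in EtOH at 4 h, 1 to 2 for the interaction at 4 h and 1 to 4 for the change of the TAM effect with time in siSTAT3 cells. FST gained its call in the 4 h interaction without siNEG EtOH 24 h replicate 3. Where a lone siSTAT3 TAM 24 h array remained, it was assumed to vary like the other groups. Causes other than those named were not tested.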
